A study of Mus musculus with 2 samples.

Results

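The endothelial nuclei of tumors from the dFLEx CDS mouse were examined by single-nucleus RNA sequencing. In this mouse a CIC::DUX4 allele at Rosa26, under the ubiquitous CAG promoter, is switched on only where Cre and FLP recombinases are both present, and plasmids encoding these recombinases were delivered by electroporation to a hind limb of young adult mice. By this design the fusion is switched on only in cells that took up both plasmids. Whether the nuclei called endothelial carried it was not tested. A group of 4 untreated tumors (genotype dFLEx CDS +/- per the labels) was compared with 4 tumors from mice given Minnelide, a water-soluble prodrug of triptolide, at 0.42 mg/kg for 21 days. The paper states that the Minnelide tumors sequenced were ones that had responded well or poorly to the drug. Response was not used here, so the Minnelide group mixes both. Triptolide binds the XPB subunit (Ercc3) of the transcription factor TFIIH, and the study asks what the drug does to CIC::DUX4 tumors. Each matrix was taken as 1 tumor. Whether the 4 tumors of a group came from separate mice is not given per matrix in the labels, so the spread between tumors may not cover all of the spread between mice.

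The nuclei were chosen by their own counts of unique molecular identifiers (UMIs), through the measured levels of 10 endothelial and 5 tumor genes. Among nuclei with at least 1000 UMIs and under 5% mitochondrial UMIs, E was the sum of Pecam1, Cdh5, Kdr, Flt1, Tek, Tie1, Emcn, Ptprb, Erg and Egfl7 per 10000 UMIs, and T was the same sum for Etv1, Etv4, Etv5, Shc3 and Shc4, which are target genes of CIC::DUX4. Members had an E of at least 40, at least 4 of the 10 E genes detected, and a T below 2 times E. The rule found 4412 endothelial nuclei among 60121 that passed the filters, which were 7.34% of those nuclei, and 72338 nuclei had been deposited. The 4 untreated tumors gave 2928 of them and the 4 Minnelide tumors 1484. Untreated tumor 1 alone gave 1906, or 43.2%. Levels of the E and T genes are set by this rule and are a description, and so is each comparison of members with other nuclei.

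Endothelial cells line the blood and lymphatic vessels, and in a tumor they form the vessels that supply it. They respond to VEGF through the receptors Kdr and Flt1 and to angiopoietins through Tek and Tie1, they hold together through junction proteins such as Cdh5 and Pecam1, and their identity depends on ETS-family transcription factors, among them Erg. Sprouting vessels are led by tip cells, which invade the tissue and are marked by genes such as Esm1, Apln and Angpt2, while arteries, capillaries, veins and lymphatics each keep genes of their own.

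The endothelial nuclei held 17672245 UMIs in all, from 653526 in untreated tumor 4 to 7161926 in untreated tumor 1. Nucleus barcodes were shared only between tumors of different groups that had the same barcode bases 8 and 9, with 49 to 132 barcodes in a pair, and 2 of the shared barcodes were endothelial in both tumors. The labels give no sequencing run, so a run and the treatment cannot be told apart. The mitochondrial percentage was higher in endothelial than in other nuclei in 8 of 8 tumors. Its median in the endothelial nuclei was 0.320% in Minnelide tumor 2, the lowest, and 2.10% in Minnelide tumor 4, the highest. Scrublet marked 287 of the members as doublets.

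Flt1 is a VEGF receptor that can act as a decoy, and Egfl7 is a protein that endothelial cells secrete into their matrix. In the RefSeq table of build GRCm38.p6, 7 of the 10 E genes had an entry, with 11 start sites between them. The 250 bases before each start were searched on both strands for AGGAAGT and for its form with CC in place of the first A, which are binding motifs of ETS factors and cannot share a site. A match stood in 3 of the 11 start sites, 2 of Egfl7 and 1 of Flt1, and in 10.3% of all 32851 start sites of the table. Of the 22 endothelial markers outside the rule, 12 had an entry, and 1 of their 14 start sites had a match. A promoter of each of these genes is shown because the factor Erg, itself an E gene, binds such motifs. Capitals mark the match, which lies 53 to 47 bases before the start of Flt1 (chr5:147726012-147726261, minus strand) and 80 to 74 bases before the middle start of Egfl7 (chr2:26583615-26583864, plus strand).
Flt1: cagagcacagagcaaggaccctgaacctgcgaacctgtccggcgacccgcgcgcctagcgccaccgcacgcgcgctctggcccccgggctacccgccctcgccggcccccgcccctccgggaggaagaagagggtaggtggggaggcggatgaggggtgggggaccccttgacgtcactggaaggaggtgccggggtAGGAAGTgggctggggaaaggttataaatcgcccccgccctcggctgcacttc
Egfl7: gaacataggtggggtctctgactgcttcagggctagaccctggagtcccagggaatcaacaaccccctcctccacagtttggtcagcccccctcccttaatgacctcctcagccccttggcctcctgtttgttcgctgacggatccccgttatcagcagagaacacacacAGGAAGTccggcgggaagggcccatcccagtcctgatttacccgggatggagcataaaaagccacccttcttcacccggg
No binding was measured, and a match is a feature of the letters alone.

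The share of endothelial nuclei was 20.1% in untreated tumor 1, 5.25% in tumor 2, 7.95% in tumor 3 and 4.36% in tumor 4. It was 3.99%, 3.96%, 3.31% and 8.32% in Minnelide tumors 1 to 4. Untreated tumor 1 stood far above the rest, and the other 7 tumors of both groups overlapped. The 95% exact binomial interval of untreated tumor 1 was 19.3 to 21.0% and that of Minnelide tumor 3, the lowest, 2.96 to 3.68%, and both cover counting error only. The mean share was 9.42% ± 7.30 (SD, n = 4) without and 4.89% ± 2.30 (n = 4) with Minnelide. The difference of -4.53 percentage points was within the spread between tumors (two-sided exact permutation test, p = 0.2286, and 0.6 after Benjamini-Hochberg adjustment over 3 comparisons; the smallest p this design allows is 0.02857). Without untreated tumor 1 the difference was -0.959 percentage points. Without Minnelide tumor 4 it was -5.67 points.

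**Figure D1:**
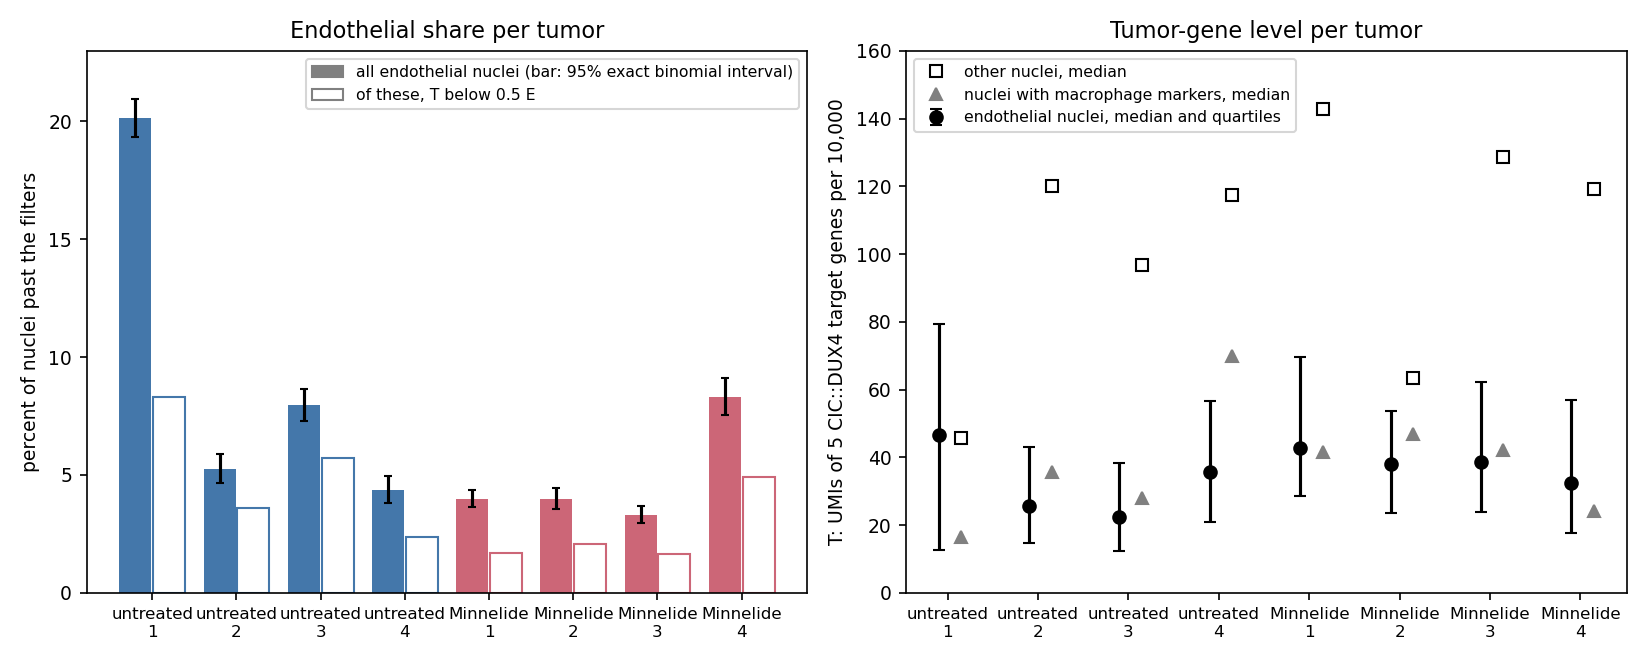
Left, endothelial nuclei as a percent of the nuclei past the filters in each tumor (filled bars, with 95% exact binomial intervals) and the subset with T below 0.5 E (open bars). Right, T in UMIs per 10000, as median and quartiles of the endothelial nuclei (circles) and as medians of the other nuclei (squares) and of nuclei with macrophage markers (triangles); in untreated tumor 1 the circle and the square coincide, at 46.5 and 45.7.

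The rule limits T in members, so their T is a description, and a low T among them is no support for the label. In 7 tumors the median T of the endothelial nuclei was 22.3 to 42.9 and that of the other nuclei 63.4 to 143. In untreated tumor 1 the medians were 46.5 and 45.7, and 42.4% of its members had a T at least as high as their E. The quartiles of T there were 12.6 and 79.3. Nuclei with macrophage markers, which should lack the fusion, had a median T of 16.3 in untreated tumor 1 and 24.1 to 69.8 elsewhere, with median depths of 1757 to 3843 UMIs against 2205 to 4701 UMIs in the members. Their median was below that of the members in untreated tumor 1 and in Minnelide tumors 1 and 4, and above it in the other 5 tumors. The other nuclei of untreated tumor 1 had a median E of 23.3, against 3.0 to 6.90 in the other tumors. In untreated tumor 1 the members thus had the T of the other nuclei although the rule capped it, so the endothelial label is in doubt for many of them. The label is in doubt in Minnelide tumors 1 and 3 as well. Of their members 62.6% and 67.7% fell in subclusters (below) of median T above 50, against 4.68% in Minnelide tumor 2. The median T of all members is not the ground for this doubt. It was 42.9 and 38.6 in Minnelide tumors 1 and 3, and 38.1 in Minnelide tumor 2. The paper describes tumor cells that express endothelial genes such as Pecam1, Erg and Cdh5, with reduced CIC::DUX4 activity, in 1 of 4 dFLEx CDS tumors. Which matrix that tumor is, and whether such nuclei are among the members, was not tested. Values without untreated tumor 1 or for members with T below 0.5 E are given beside many of the results below, though not beside each.

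With T below 0.5 E, 2219 nuclei remained. Their share was 8.33%, 3.60%, 5.73% and 2.35% in untreated tumors 1 to 4 and 1.67%, 2.05%, 1.63% and 4.93% in Minnelide tumors 1 to 4. The order of the tumors was much as before, with untreated tumor 1 highest. The means were 5.0% and 2.57%. At the edges of the rule, 274 members had an E of 40 to 44 and 256 nuclei with an E of 36 to 40 met the other criteria, 438 members had exactly 4 E genes and 203 nuclei missed with 3, and 195 members had a T of 1.8 to 2 times E while 271 nuclei missed at 2 to 2.2 times E. Untreated tumor 1 held 135 of the former and 199 of the latter.

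The median UMI count per endothelial nucleus was 2740, 3789, 3195 and 2355 in untreated tumors 1 to 4 and 4564, 2205, 4701 and 3064 in Minnelide tumors 1 to 4. The groups overlapped, with means of 3020 ± 617 and 3634 ± 1207 (SD, n = 4 each; two-sided exact permutation test, p = 0.4, adjusted p = 0.6). Thinned to 1000 UMIs, a nucleus had a median of 768 to 797 genes in the untreated and 770 to 788 in the Minnelide tumors (exact permutation p = 0.9714).

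All 10 E genes were higher in endothelial than in other nuclei in 8 of 8 tumors, as the rule ensured. Levels are given as CPM, the UMI count per 1000000 UMIs summed over the nuclei of a tumor, which is not corrected for gene length. Emcn, endomucin of the endothelial surface, had 932, 1318, 1247 and 729.9 CPM in the endothelial nuclei of untreated tumors 1 to 4 and 847, 696, 1090 and 1303 in those of Minnelide tumors 1 to 4. In the other nuclei it was 302.9 CPM in untreated tumor 1 and 31.4 to 70.3 elsewhere. Untreated tumor 1 thus had a 3.07-fold higher level in its endothelial nuclei, and the remaining 7 tumors 18.3 to 26.6-fold. For Flt1 the folds were 3.59 and 9.09 to 22.3.

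Genes that the rule did not use behaved alike. Of 22 endothelial markers outside the rule, 21 were in the files and 20 were higher in endothelial nuclei in 8 of 8 tumors, where 16.6% of the 10138 genes tested were. Mecom, a zinc-finger transcription factor, had 1856, 2240, 2253 and 3360 CPM in untreated and 2154, 3274, 1851 and 1644 in Minnelide tumors, against 82.1 to 1008 in the other nuclei. Ldb2, a LIM-domain cofactor, had 1463 to 2561 CPM, Prex2, a Rac exchange factor, 1039 to 1665, and Adgrl4, an adhesion receptor of vessels, 721 to 1056. None of these 4 separated the groups. Untreated tumor 1 again had the smallest difference from its other nuclei, with a fold of 1.84 for Mecom and 1.59 for Ldb2, against 8.90 to 22.3 and 8.95 to 19.4 in the other tumors.

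Among genes with at least 50 CPM in the members of every tumor, the largest median ratio outside the rule was that of Tacr1, the receptor of substance P. It had 164, 496, 600 and 484 CPM in untreated and 552, 145, 785 and 441 in Minnelide tumors, and 5.52 to 23.4 in other nuclei. Cyyr1, Dipk2b, Adgrl4, the Rap exchange factors Rapgef4 and Rapgef5, the splicing factor Nova2, Ccm2l, Zfp366, Dync1i1, the prostaglandin transporter Slco2a1 and the scaffold Shank3 followed. All but Dync1i1 were higher in 8 of 8 tumors, and Dync1i1 in 7 of 8, without untreated tumor 1. These genes were picked for their ratio in the same tumors, so the counts are a description and no independent support.

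**Figure D2:**
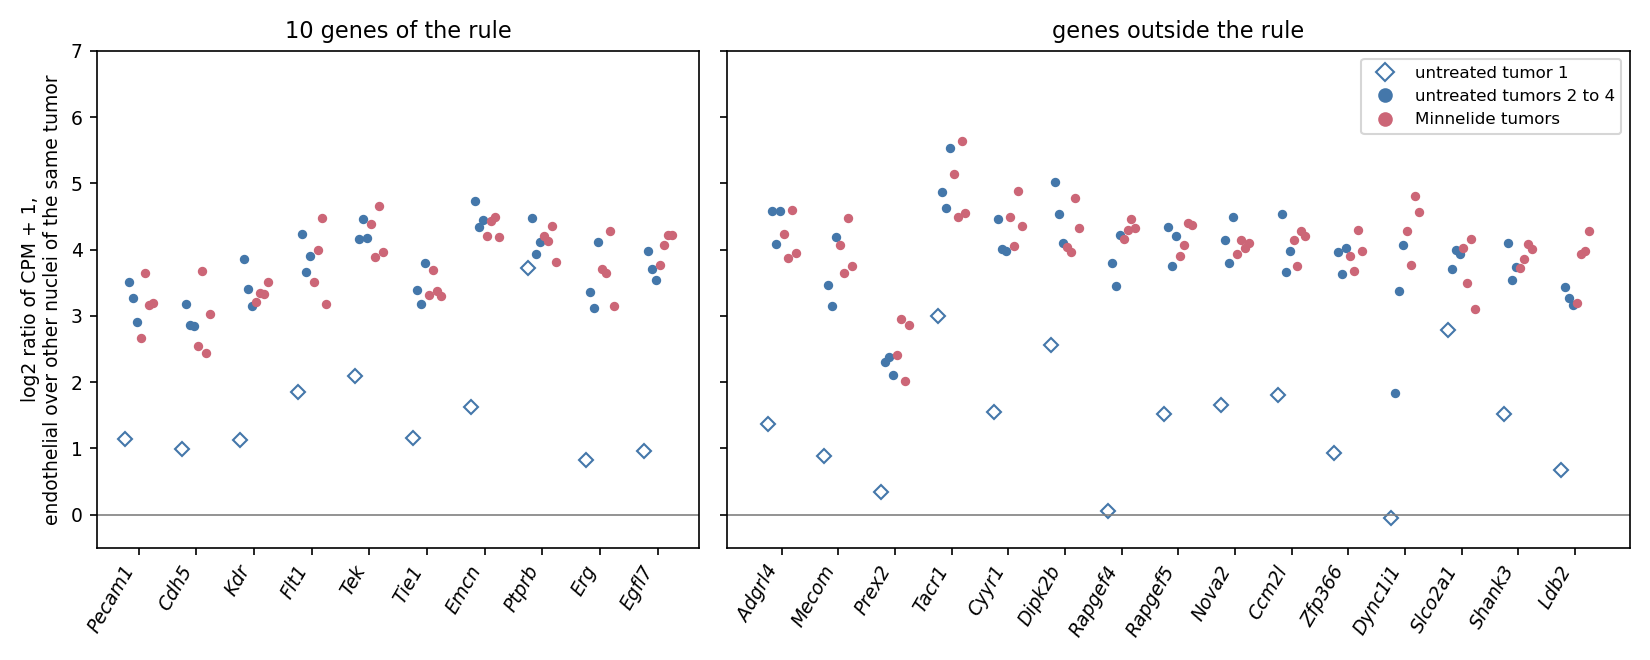
Log2 ratio of CPM + 1 in endothelial over other nuclei of the same tumor, 1 point per tumor, for the 10 E genes (left) and for genes outside the rule (right). Those on the right were picked for a large ratio in these tumors or, among endothelial markers, for a high level. The open diamonds of untreated tumor 1 lie below all other tumors for each gene shown, and Dync1i1 is below 0 there.

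Of the junction genes 14 of 16 were above the other nuclei in 8 of 8 tumors, E genes Cdh5 and Pecam1 included, and of the basement membrane genes 12 of 15. Col4a1, the collagen IV chain that vessels lay down, had 1101, 2221, 1628 and 1749 CPM in untreated and 2156, 1210, 2104 and 2599 in Minnelide tumors. Of 26 endothelial transcription factors 20 were above in 8 of 8 tumors, Erg included, and Foxp1 was below in all 8. Sox17, a factor of arteries, was a median 11.5-fold over the other nuclei. Fli1 and Ets1, which like Erg belong to the ETS family, were a median 1.12-fold and 1.24-fold over them. None of the 29 cell cycle genes in the files was above in 8 of 8 tumors and 12 were below in all of them. The vessel genes thus set members apart from the other nuclei far more than Fli1 and Ets1 did. Ets1 is also among the CIC::DUX4 targets outside the rule that are summed below, and ratios of the other ETS genes in the list are not given here.

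Genes of the vessel types differed between tumors. Summed over 16 tip cell and sprouting genes, the level was 2228, 6718, 5652 and 5735 CPM in untreated and 5204, 3489, 6080 and 7592 in Minnelide tumors. Untreated tumor 1 was lowest and Minnelide tumor 2 next, and the groups overlapped. The sum includes Col4a1, at the levels given above, and Robo1, which were the largest genes of this list in subclusters 3 and 7 below. Esm1, a proteoglycan of tip cells, had 1.54, 49.3, 23.5 and 21.4 CPM in untreated and 49.3, 8.52, 59.7 and 102 in Minnelide tumors. Apln, the ligand apelin, had 11.2, 91.6, 41.8 and 41.3 in untreated and 45.6, 18.3, 66.0 and 271 in Minnelide tumors. The same tumors were low in both genes, and Minnelide tumor 4 was highest in both.

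The arterial, capillary, venous and lymphatic genes went the other way in untreated tumor 1. Its 14 arterial genes summed to 2752 CPM against 904 to 1475 in the other tumors, the 12 capillary genes to 2295 against 665 to 1252, the 12 venous genes to 2289 against 858 to 1303, and the 10 lymphatic genes to 827 against 99.8 to 192. With T below 0.5 E its values were 3432, 3178, 3227 and 569 CPM, so they stayed above the rest in the nuclei that carried few tumor genes. Reln, a lymphatic gene, was 491 CPM in these endothelial nuclei but 693 in the other nuclei of untreated tumor 1, so it did not mark the members there. Single genes also carried much of the arterial and capillary sums in subclusters 4, 5 and 6 (below), which came largely from this tumor. Mgp gave 2549 of 3866 arterial CPM in subcluster 4 and 1224 of 2112 in subcluster 6. Fabp4 gave 1497 of 3214 capillary CPM in subcluster 4 and 1419 of 3292 in subcluster 5. The 4 lists were also highest in the other nuclei of untreated tumor 1, so the high sums were not confined to its members. There they summed to 1350, 940, 939 and 960 CPM. In the other nuclei of the remaining tumors they were 214 to 366, 545 to 688, 223 to 341 and 96.6 to 183. Car4, a capillary enzyme, was at 0 in 4 tumors and at most 8.80 CPM.

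**Figure D3:**
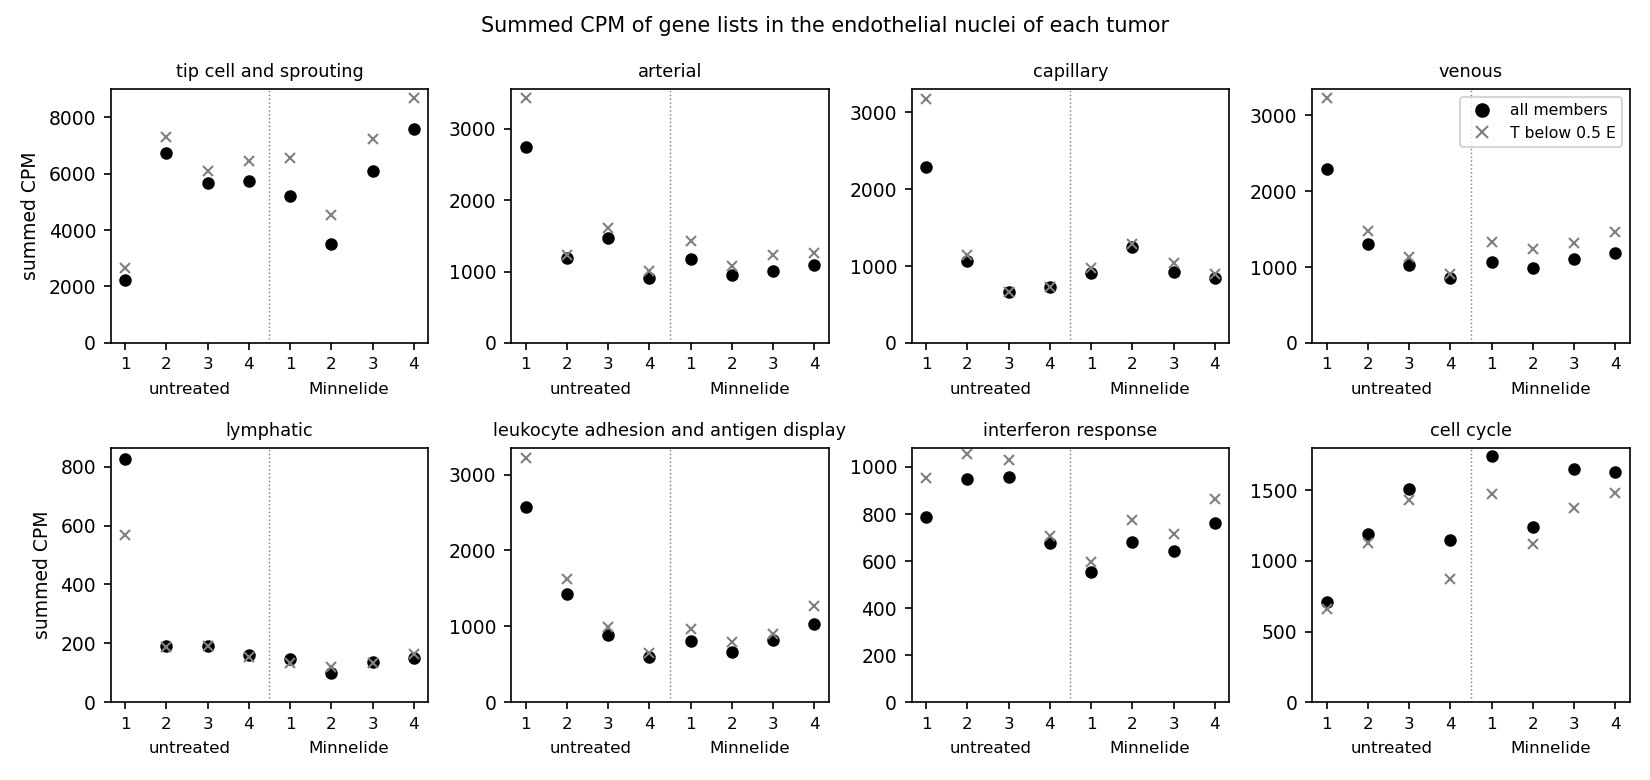
Summed CPM of 8 gene lists in the endothelial nuclei of each tumor, on axes from 0, for all members (circles) and for members with T below 0.5 E (crosses). Untreated tumor 1 is highest for the arterial, capillary, venous, lymphatic and leukocyte adhesion lists and lowest for the tip and cell cycle lists.

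Genes of other cell types were present as well. The 10 myocyte markers summed to 15563 CPM in the endothelial nuclei of untreated tumor 1, 9308 in Minnelide tumor 2 and 306 to 3024 elsewhere, with Ttn, titin of the sarcomere, at 8397 and 5790 CPM in those 2 tumors. In the other nuclei of the same tumors the sum was 15637 and 23926, and it ranged from 874 to 14094 elsewhere. The 10 macrophage markers summed to 690 CPM in untreated tumor 1 and 85.7 to 258 in the rest, the 10 lymphocyte markers to 148 and 7.47 to 28.0, and the 10 fibroblast markers to 1100 to 4839 CPM over all tumors. No marker of these lists was at 0 in every tumor. Among the lymphocyte markers Ms4a1 was at 0 in 7 of 8 tumors. The part of these genes in the results was not tested.

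Clustered without integration, the 4412 nuclei formed 14 subclusters, which are described only. Subcluster 7 was named tip-like, with Esm1, Angpt2, Trp53i11 and Apln among its 10 leading genes. It held 396 nuclei from all 8 tumors, with a median E of 81.7 and T of 20.1. Its tip list summed to 9076 CPM, the highest of the subclusters, of which Robo1 gave 2634 and Col4a1 2741. Esm1 had 141 CPM there against 0 to 52.7 in the others. It made up 0.105%, 39.4%, 14.3% and 29.2% of the members of untreated tumors 1 to 4 and 6.78%, 5.35%, 12% and 14.6% of Minnelide tumors 1 to 4, so it was nearly empty in untreated tumor 1.

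Subcluster 11 was named arterial-like, with Nebl, Bmx, Sema3g, Gja5 and Gja4 among its 10 leading genes. Bmx is a kinase of arterial endothelium, and Gja5 and Gja4 are connexins that couple arterial cells. It held 158 nuclei, 92 of them from untreated tumor 1, with a median T of 13.2. The arterial list summed to 9049 CPM there and to 722 to 3866 in the others. Mecom was at 5040 CPM and Efnb2, an arterial ephrin, at 989 CPM, both highest in this subcluster. It made up 0.496 to 5.02% of the members of a tumor.

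Subcluster 14 was named lymphatic-like, with Mmrn1, Lyve1, Stab2 and Pard6g among its leading genes. All but 1 of its 22 nuclei came from untreated tumor 1. Prox1, the factor that sets lymphatic identity, had 1060 CPM and Lyve1, a hyaluronan receptor, 1414, against at most 56.5 and 55.0 in the other subclusters. The tumor genes were low, with a median T of 13.

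The remaining subclusters carry no name. Subclusters 1, 3 and 5 had a median T under 0.5 times their median E, with a median T of 37.6, 22.0 and 9.0 and a median E of 77.7, 103 and 99.0. Subcluster 1 was near that limit. Of its nuclei 51.7% had a T below 0.5 E, against 85.4% and 95.5% in subclusters 3 and 5, and 20.7% had a T at least as high as their E. Subcluster 1 (580 nuclei from all 8 tumors) was led by the protease Adamts18, Fam155a, the leukocyte adhesion molecule Selp, Pcdh7, the interleukin-1 receptor Il1r1 and Rasgrf2. Subcluster 3 (486 nuclei) was led by Tmem163, Sntb1, Nlrc3, the potassium channel subunit Kcne3, Reep1 and the integrin Itga2. It had the highest Flt1, 4061 CPM, and the next highest tip list, 8252 CPM, of which Robo1 gave 3396 and Col4a1 2531. Subcluster 5 (465 nuclei, 431 from untreated tumor 1) was led by E-selectin (Sele), Rasgef1a, Il13ra2, the chemokine receptor Ackr1, Htr2b and Cadm3. Its venous list, 4128 CPM, was the highest. Selp stood at 259.5 CPM in subcluster 1 and 244 in subcluster 5, and at most at 58.7 in the others.

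Subclusters 2, 4, 6, 8 and 12 had a median T above 50, of 53.6, 53.5, 87.4, 59.2 and 63.5, and each came largely from 1 or 2 tumors. Subcluster 2 (517 nuclei, 285 from Minnelide tumor 1 and 212 from Minnelide tumor 3) was led by Alb, Dlk1, Zan, Tafa1, Unc5c and Spock3. Subcluster 4 (482 nuclei, 481 from untreated tumor 1) was led by the muscle genes Myh2, Csrp3, Hspb6, Hspb7, Cryab and Ankrd2. Subcluster 6 (425 nuclei, 423 from untreated tumor 1) was led by Gabrg3, Cdh1, Rgs17, Cobl, Tepp and Nxph1. Subcluster 8 (353 nuclei, 323 from untreated tumor 1) was led by the leukocyte genes Themis, Grap2, Skap1, Ikzf1, Arhgap15 and Dock2, and 22.4% of it was marked as doublets. Subcluster 12 (156 nuclei, 132 from Minnelide tumor 4) was led by Zfp804b, Syt9, Tenm1, Tmem132c, Meis2 and Dner. Together these 5 held 43.8% of the endothelial nuclei, with 64.4% of the members of untreated tumor 1, 62.6%, 67.7% and 33.0% of Minnelide tumors 1, 3 and 4, and 0.442 to 13.7% of the other 4 tumors.

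The last 3 subclusters were small. Subcluster 9 (183 nuclei) was led by Myo16, Rasl12, Brinp3, Edil3, Pde3a and Gucy1a2 and had the highest pericyte marker sum, 1829 CPM. Subcluster 10 (159 nuclei, 52.8% marked as doublets) was led by Mlip, Agbl1, Prr33, Kbtbd12, Mylk4 and Itgb6, with 29838 CPM of myocyte markers. Subcluster 13 (30 nuclei) was led by Nyap2, Atp6v0d2, St18, Dgki, Slc9b2 and Tmc1, of which Atp6v0d2 is a proton pump subunit of osteoclasts.

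**Figure D4:**
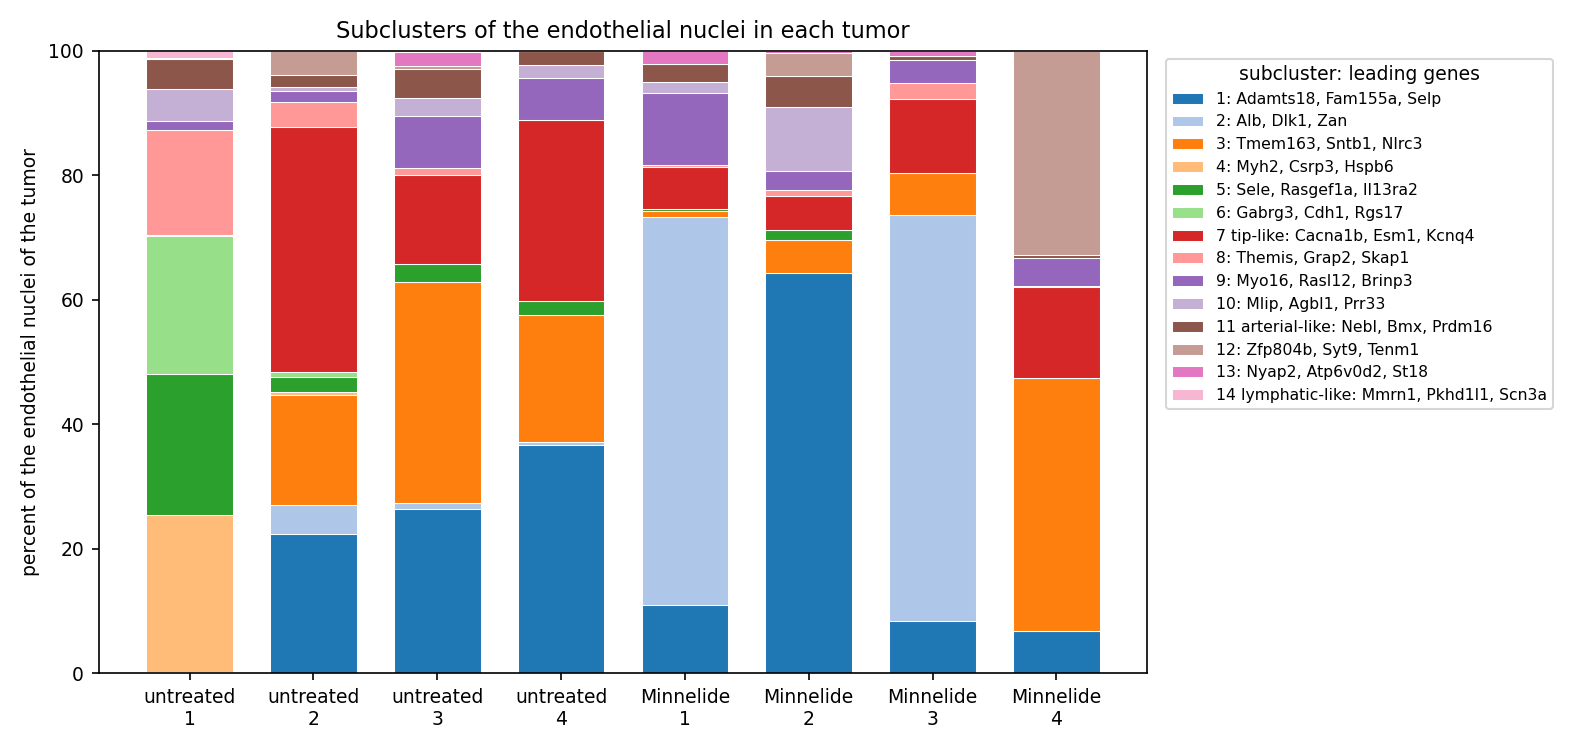
Share of each of the 14 subclusters among the endothelial nuclei of each tumor, in percent, with the 3 leading genes of each. Untreated tumor 1 is made up mainly of subclusters 4, 5, 6 and 8, and Minnelide tumors 1 and 3 mainly of subcluster 2, while subclusters 1, 3 and 7 fill most of untreated tumors 2 to 4.

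Minnelide and untreated endothelial nuclei were compared on the UMIs summed per tumor. No gene passed in edgeR's quasi-likelihood test at an adjusted p under 0.05 among 10138 tested (0%). At an unadjusted p under 0.05 there were 618 (6.1%), of which 311 were higher and 307 lower with Minnelide. With DESeq2, 17 genes were called on the same sums, 16 higher and 1 lower. The groups of tumors did not overlap for 403 genes (3.98%). The values below are therefore the fitted log2 fold changes (Minnelide over untreated) of genes with the smallest p, of which edgeR called none, each with an adjusted p between 0.733 and 0.743.

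Of the 8 genes with the smallest p among the higher, Ccnd2, cyclin D2 and a CIC::DUX4 target, had 573, 503, 511 and 448 CPM in untreated and 977, 734, 890 and 779 in Minnelide tumors, without overlap (0.78 ± 0.15 SE). Col4a6, a collagen IV chain, had 89.4, 82.2, 64.8 and 71.9 against 129, 174, 199 and 310 CPM (1.44 ± 0.26). Mdga2, a neuronal adhesion molecule, had 1207, 1129, 868 and 1073 against 1725, 2647, 1616 and 2376 CPM (1.008 ± 0.21). These 3 genes were lower in endothelial than in other nuclei in 8 of 8 tumors. In the other nuclei the group means of Col4a6 were 304 and 647 CPM, and those of Ccnd2 1282 and 1773. The remaining 5 were Ptchd4 (1.84 ± 0.34), Cox6b2 (1.03 ± 0.21), Pip4p2 (0.67 ± 0.14), the neuronal pentraxin Nptx2 (1.93 ± 0.40) and the collagen processing enhancer Pcolce (0.99 ± 0.21), and all were below the other nuclei in at least 7 of 8 tumors. Pcolce overlaps Fbxo24 on the same strand, so its count is uncertain. DESeq2 called 7 of the 8, with adjusted p from 0.000368 to 0.0366, and gave Nptx2 no adjusted p. The 10 CIC::DUX4 targets outside the rule, Ccnd2 among them, summed to 3225, 4929, 4331 and 4627 CPM in untreated and 7728, 5344, 8832 and 6194 in Minnelide tumors, without overlap, and 8 of the 9 tested were higher (median 0.28). Without untreated tumor 1, 6 were higher and 3 lower, with a median of 0.21. The highest sums came from Minnelide tumors 1 and 3, with 62.6% and 67.7% of their members in subclusters of median T above 50, and subcluster 2, mainly theirs, had 9213 CPM of these targets. With T below 0.5 E the sums were 2098 to 4182 CPM in untreated and 4476.6 to 7382 in Minnelide tumors. The part of T in this difference was not tested. In the other nuclei that sum was 3441 to 8841 and 6161 to 13360 CPM. The median T of the endothelial nuclei was 32.5 ± 10.9 UMIs per 10000 without and 38 ± 4.34 with Minnelide.

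Of the 8 genes with the smallest p among the lower, Lurap1l had 61.3, 36.8, 40.8 and 59.7 CPM in untreated and 22.2, 15.8, 22.97 and 24.0 in Minnelide tumors (-1.16 ± 0.23), and it was the gene that DESeq2 called (adjusted p = 0.0304). Lrrc32, which anchors latent TGF-beta at the cell surface, had 36.4, 27.4, 22.1 and 26.0 against 14.2, 15.8, 9.19 and 12.3 CPM (-1.09 ± 0.24). It was the gene of the 16 that was above the other nuclei in 8 of 8 tumors, at 2.78 to 5.52-fold outside untreated tumor 1. H2-Q7, a class I antigen gene with near-identical relatives that make its counts uncertain, had 38.8, 18.0, 14.4 and 9.18 against 4.18, 4.87, 6.89 and 2.59 CPM (-2.11 ± 0.47). The heparan sulfate enzyme Hs3st1 (-1.58 ± 0.36), the matrix gene Efemp1 (-1.72 ± 0.40), the ubiquitin ligase March1 (-1.91 ± 0.44), the peroxisomal enzyme Ehhadh (-1.36 ± 0.29) and the secretion factor Cadps (-2.73 ± 0.62) made up the rest, with at most 42.2 CPM in any tumor. None of the 16 changed direction under the alternatives in which it was tested, but sizes moved. The 16 were picked for a small p on these sums and the alternatives reuse the same nuclei, so the kept direction is no independent support. In the subclusters with a median T under 0.5 times their median E, Ptchd4 went from 1.84 to 0.99 and Lurap1l from -1.16 to -0.65. Nptx2, Ehhadh and Cadps were not tested there or with T below 0.5 E, and H2-Q7, March1 and Efemp1 not in those subclusters.

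**Figure D5:**
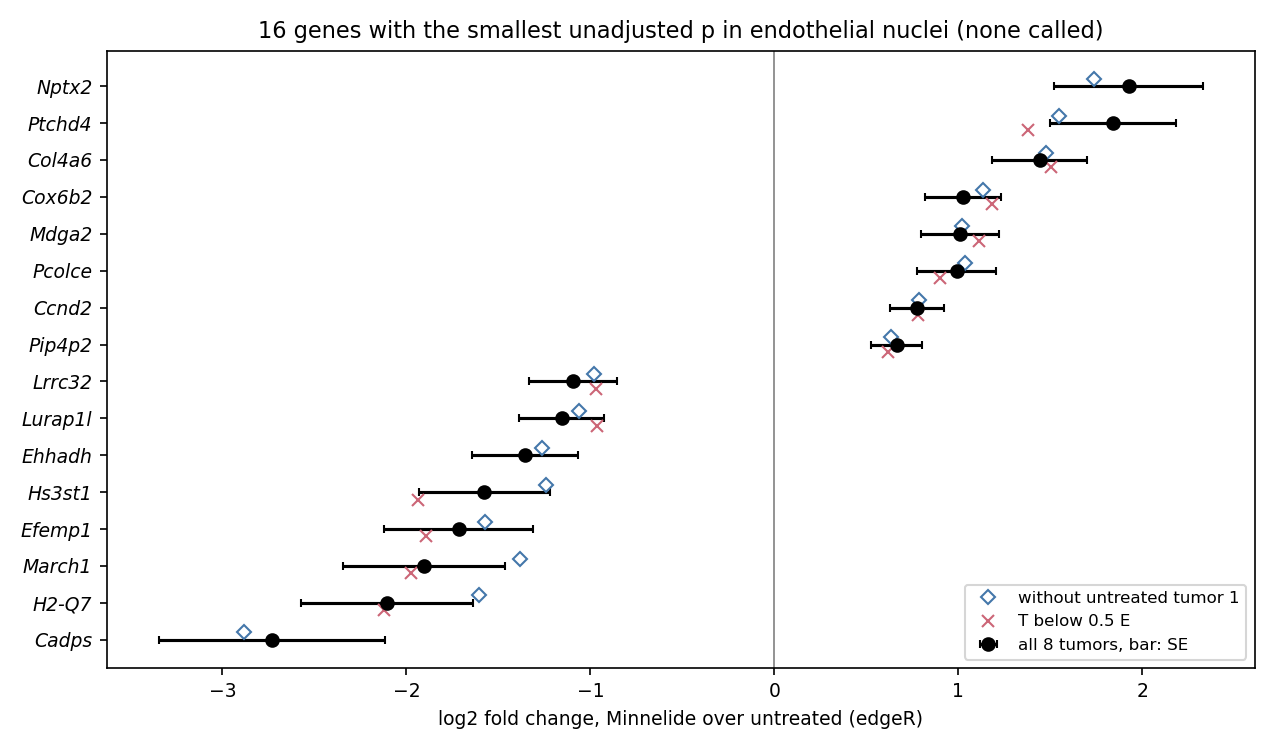
Fitted log2 fold change, Minnelide over untreated, of the 8 higher and 8 lower genes with the smallest unadjusted p in edgeR (circles, bars are SE), with the fit without untreated tumor 1 (diamonds) and with T below 0.5 E (crosses, missing where a gene was not tested there). The values lie between -2.73 and 1.93 in the fit of all 8 tumors, and no gene was called.

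None of the gene lists held a gene that edgeR called. Beside a median of -0.02 over all genes, the 28 cell cycle genes tested had a median log2 fold change of 0.43 and 28 of 28 were higher, 5 of them at an unadjusted p under 0.05. Their sum was 712, 1190, 1508 and 1149 CPM in untreated and 1743, 1241, 1647 and 1632 in Minnelide tumors. Untreated tumor 1 was lowest, and untreated tumor 3 lay above Minnelide tumor 2. Without untreated tumor 1, 24 of 28 were higher, with a median of 0.28. With T below 0.5 E the sums were 659 to 1429 CPM in untreated and 1116 to 1484 in Minnelide tumors, with a median of 0.39. Subclusters 2 and 12, of median T above 50, had sums of 1950 and 1732 CPM. Subclusters 3, 5 and 7, of lower T, had 1938, 818 and 727 CPM. The part of T in this difference was not tested. Atad2, a chromatin ATPase, had 80.6, 127, 126 and 145 against 193, 174, 175 and 192 CPM (0.66 ± 0.21), Pola1, the primase-coupled DNA polymerase, a log2 fold change of 0.65 ± 0.22 and the mitotic kinase Cdk1 0.86 ± 0.32. Without untreated tumor 1 these values were 0.46, 0.51 and 0.64. Cdk1 overlaps Ank3 on the opposite strand, so its count is uncertain. The cell cycle sum was higher in the other nuclei of 8 of 8 tumors, at 749.9 to 3006 CPM.

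Of the 17 interferon response genes tested 15 were lower with Minnelide, with a median log2 fold change of -0.30, and 14 of the 16 tested without untreated tumor 1 were lower, with a median of -0.34. The sum of the list was 785, 950, 957 and 675 CPM in untreated and 552, 682, 643 and 763 in Minnelide tumors, so the groups overlapped. In the other nuclei it was 274 to 603 CPM in untreated and 198 to 233 in Minnelide tumors, without overlap, so the lower level was not confined to the members. Iigp1, an interferon-induced GTPase, had 71.8, 54.0, 77.8 and 24.5 against 14.6, 45.0, 10.9 and 18.8 CPM (-1.41 ± 0.46, or -1.39 without untreated tumor 1).

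Of the 14 leukocyte adhesion and antigen display genes 13 were lower, with a median of -0.91. Without untreated tumor 1, 8 of 14 were lower and the median was -0.06. H2-K1, a class I antigen heavy chain with close relatives, had 417, 197, 96.5 and 78.0 CPM in untreated and 72.8, 75.5, 64.3 and 69.3 in Minnelide tumors (-1.42 ± 0.44). The groups did not overlap, but untreated tumors 3 and 4 lay close to the Minnelide tumors, and without untreated tumor 1 the value was -0.82. The arterial list (12 of 14 lower, median -0.75) had a median of -0.27 without untreated tumor 1, the venous list (11 of 12 lower, -0.47) a median of -0.01, and the capillary list (7 of 10 lower, -0.14) a median of 0.34. Sema3g, an arterial semaphorin, had 101, 23.5, 38.9 and 12.2 against 18.0, 23.1, 8.61 and 11.02 CPM (-1.55 ± 0.56, or -0.83 without untreated tumor 1).

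Among the signalling and other listed genes here edgeR called none, and those named were picked for a small p within their list. Tgfbr2, the type II TGF-beta receptor, had 342, 335, 274 and 225 CPM in untreated and 199, 185, 211 and 207 in Minnelide tumors, without overlap (-0.50 ± 0.14, or -0.47 without untreated tumor 1, unadjusted p = 0.00636, adjusted p = 0.797 in edgeR). Of its BMP and TGF-beta list 10 of 16 were higher, with a median of 0.04. F11r, a tight junction molecule, had 151, 184, 168 and 220 against 107, 112, 134 and 136 CPM (-0.52 ± 0.18, or -0.64 without untreated tumor 1). Sox7, a vascular transcription factor, had 95.1, 86.9, 37.9 and 56.6 against 40.6, 40.2, 45.9 and 44.7 CPM (-0.64 ± 0.26, or -0.31 with T below 0.5 E). Of the 25 transcription factors tested 17 were lower, with a median of -0.25. Vegfa, the main VEGF ligand, had 100.4, 110.4, 83.1 and 127 against 140.1, 169, 109.7 and 126 CPM (0.41 ± 0.19, or 0.35 without untreated tumor 1) and was below the other nuclei in 8 of 8 tumors. The tip list (11 of 16 higher, median 0.13) had a median of 0.00 without untreated tumor 1, and 13 of 15 basement membrane genes were higher, with a median of 0.24, or 0.04 without that tumor. Fn1, fibronectin of the mesenchymal list, had 616, 508, 543 and 745 against 1152, 601, 1041 and 843 CPM (0.63 ± 0.23, or 0.59 without untreated tumor 1).

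The drug's target and its polymerase differed by less than the spread between tumors. Ercc3 had 14.1, 14.9, 14.9 and 10.7 CPM in untreated and 10.0, 12.2, 11.5 and 12.96 in Minnelide tumors (-0.20 ± 0.23). Polr2a, the largest subunit of RNA polymerase II, had 101, 99.5, 102 and 187 against 104, 144, 102 and 85.6 CPM (-0.13 ± 0.27). The 20 tested subunit genes of this polymerase and of TFIIH had a median of -0.02, as over all genes.

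The difference between the Minnelide effect in endothelial and in other nuclei of the same tumors was tested in an edgeR fit with the tumor as a block. None of 13383 genes passed (0%), while DESeq2 called 7, and 541 genes stood below 0.05 in unadjusted p. The smallest adjusted p was 0.271. Cdk6, a G1 kinase, had 78.5, 108, 133 and 115 CPM in the endothelial nuclei of untreated and 97.0, 82.8, 115 and 120 in those of Minnelide tumors. In the other nuclei it had 69.7, 86.9, 122 and 81.0 against 25.1, 35.6, 31.5 and 43.9. The groups thus overlapped in endothelial nuclei and were apart in the others, with a difference of effects of 1.30 ± 0.20 on the log2 scale (adjusted p = 0.271 in edgeR and 0.000978 in DESeq2).

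Hmgcll1 had 10.96 to 23.3 CPM in untreated and 15.6 to 28.4 in Minnelide endothelial nuclei, against 53.2 to 83.9 and 19.1 to 34.4 in the other nuclei (difference 1.77 ± 0.29, adjusted p = 0.306 in edgeR). Without untreated tumor 1 the differences for Cdk6 and Hmgcll1 were 1.25 and 1.99. In the subclusters with a median T under 0.5 times their median E they were 1.41 and 0.85. Tox3 reached 191 CPM in untreated tumor 1 and at most 12.5 in the other endothelial nuclei (difference 2.18 ± 0.33), and its level rests on that tumor. In the other direction the ferroxidase Heph, which overlaps Hsf3 on the opposite strand, had 10.2 to 21.4 and 17.8 to 21.9 CPM in endothelial nuclei but 5.88 to 16.5 and 23.4 to 37.9 in the others (-1.31 ± 0.32). Sorcs3 (-4.19 ± 0.91) and Opcml (-2.98 ± 0.73) had at most 16.8 CPM in the endothelial nuclei of any tumor.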

How the data were processed

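Nuclei of 8 tumors were profiled with a 3′ single-nucleus kit, and the deposited matrices hold raw UMI counts per gene and nucleus that the authors made with Cell Ranger (9.0.1 per the file headers, 7.0.1 per the labels) on mm39, with 19059 features. The group came from the label of each matrix, and tumor numbers only name tumors and pair nothing. The members and the gene lists were chosen with earlier results of these data known. Counts of the endothelial and of the other nuclei were summed per tumor and tested with edgeR 4.0.16 (quasi-likelihood, TMM, filterByExpr, Benjamini-Hochberg over all genes tested), with DESeq2 1.42.0 as an alternative. Single values per tumor were compared by exact permutation in scipy 1.17.1. Fold changes of E and T genes carry no test, since these genes chose the nuclei. Members were clustered in scanpy 1.11.5 on 2000 variable genes without the 15 E and T genes (20 principal components, 15 neighbors, Leiden resolution 0.5). Leading genes had the largest log2 ratio among genes in at least 10% of a subcluster. Doublets were marked with Scrublet at an expected 0.8% per 1000 nuclei and kept, and left out as an alternative. The fits were tested on simulated data. Named genes were the 8 higher and 8 lower with the smallest p, the 3 in each direction for the difference between endothelial and other nuclei, up to 3 of each list, and Ercc3 and Polr2a, with 1 gene of the rule not reported here. The 12 genes of largest ratio to the other nuclei had at least 50 CPM in every tumor. Endothelial depth ran from 653526 to 7161926 UMIs per tumor, and intervals cover counting error only.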

Additional observations from a re-analysis of the deposited data

Results flagged for a closer look

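Among 76 groups of 4 tumors, 13 held a tumor that lay apart by Dixon's ratio test at 95%. Chance sets a tumor apart in about 5% of such groups.

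Most of them concerned untreated tumor 1. The median E of its other nuclei was 23.3 UMIs per 10000, and the nearest untreated tumor had 4.98. The rule used E, so this value is a description. Its endothelial nuclei had 10597 CPM of endothelial markers outside the rule (nearest 11977) and 827 CPM of lymphatic genes (nearest 192). They had 3520 CPM of lipid and metabolite transport genes (nearest 1832), 15563 CPM of myocyte markers (nearest 3024), 148 CPM of lymphocyte markers (nearest 16.4) and 379 CPM of adipocyte markers (nearest 178).

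In the Minnelide group, tumor 4 had the highest share of endothelial nuclei, 8.32% (nearest 3.99%), also with T below 0.5 E, 4.93% (nearest 2.05%). Tumor 2 had the lowest median mitochondrial percentage, 0.320% (nearest 1.91%), the lowest mesenchymal sum, 2996 CPM (nearest 4136), and the highest myocyte sum, 9308 CPM (nearest 1445). Tumor 1 had the highest sum of RNA polymerase II and TFIIH genes, 825 CPM (nearest 776). The causes were not tested.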

How the results depend on the processing

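The lower share with Minnelide kept its direction in every alternative run, and no exact permutation p passed 0.05. Leaving out 1 tumor gave -6.22 to -0.959 percentage points, the latter without untreated tumor 1. The difference in median UMIs ran from 257.9 to 1090 across the same omissions. The difference in genes at 1000 UMIs, 0.5, turned to -0.375 with T below 0.5 E and ran from -2.92 to 6.75 without 1 tumor. edgeR called 0 genes in every setting, without any 1 tumor included (range 0 to 0), both for Minnelide against untreated and for the difference between endothelial and other nuclei, while DESeq2 called 17 and 7. Of 35 named genes, 2 changed direction, Ercc3 to 0.052 in subclusters with a median T under 0.5 E, an alternative chosen after seeing the data, and Polr2a, which ran from -0.28 to 0.16 without 1 tumor (0.16 without untreated tumor 4). The causes were not tested. The named genes other than Ercc3 and Polr2a were picked for a small p in the same data, so their kept direction is no independent support. The 1906 nuclei of untreated tumor 1 and the 226 of untreated tumor 4 differ in depth, which limits low genes in the latter. No paired analysis was possible because the labels give no replicate numbers and the tumor numbers only name the matrices.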
